A study of Mus musculus with 18 samples.

Results

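Mouse small cell lung cancer (SCLC) cells of a class that the study calls Type D and that carried sgPpia#3.2 were compared with cells that carried the control guide sgBgal, both after p53 had been restored. The comparison held 6 of the 18 samples of the study, 1 Restored sample per guide from each of 3 cell lines (4711-1, 4711-18 and 4716-11), and samples of the same line were paired. Genes with at least 1 TPM (the share of all transcripts that a gene holds, corrected for its length) in at least 3 of these 6 samples were tested, which left 12061 of 25239 genes. TPM are the authors' values, scaled to the same sum in every sample.

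The lines came from SCLC of mice in which Ad:CMV-Cre had deleted Rb1 and Rbl2 and had trapped Trp53 in its inactive TR form, and they carry Rosa26 FlpO-ER. In these cells 500 nM 4-OHT for 72 h activates FlpO-ER, which removes the gene trap (Restored), while vehicle leaves it in place (Control). All groups share the Rb1 and Rbl2 deletions. Guides and Cas9 were delivered by LentiCRISPRv2. The control guide sgBgal targets beta-galactosidase, a bacterial gene, and sgPpia#3.2 targets exon 3 of Ppia. The samples are selected populations and not clones, so uncut and in-frame alleles can remain. The replicates were 3 different lines, and each line gave 1 sample per condition.

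Ppia encodes cyclophilin A (CypA), an abundant peptidyl-prolyl isomerase that helps proteins fold and that binds cyclosporin A. Its mitochondrial relative cyclophilin D, from Ppif, sensitizes the permeability transition pore. p53 is a transcription factor that induces genes for cell-cycle arrest, cell death, repair and its own feedback control.

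The targeted exon is shown because it is the site at which the guide set these samples apart. It lies within Ppia on the plus strand of GRCm38, at chr11:6418226-6418314, is 89 nt long, and is coding sequence in the annotated transcript (GENCODE M21). The guide sequence is not shown here.
Ppia exon 3: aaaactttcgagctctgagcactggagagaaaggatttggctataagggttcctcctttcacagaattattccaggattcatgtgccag

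Ppia was lower with sgPpia#3.2 in every line, and it was the only gene of 12061 that passed the test. With sgBgal, Restored cells held 2060.1 TPM of Ppia in 4711-1, 1551 TPM in 4711-18 and 2729.7 TPM in 4716-11. With sgPpia#3.2 the same lines held 873, 769 and 1233 TPM. The groups did not overlap, and the transcript left with sgPpia#3.2 was 42.4%, 49.6% and 45.2% of that with sgBgal. On the log2(TPM + 1) scale used for every difference below, Ppia fell by 1.13 (n = 3 lines). Its SE was 0.149 and its adjusted p was 0.0369, by limma with the cell line as a block. Each SE given here and below comes from the limma fit to all 18 samples, and is not the SE over the 3 line differences.

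A gene counted as changed if its p, adjusted by Benjamini-Hochberg, was under 0.05 and its log2 difference was 1 or more in size, and 1 gene is 0.00829% of those tested. The same count, 1, passed the adjusted p with no minimum difference. For Ppia alone, exact permutation of the 6 samples gave a two-sided p of 0.1, and exact flipping of the signs of the 3 lines gave a two-sided p of 0.25, the smallest values that 3 against 3 samples and 3 lines allow. The call did not survive the loss of any line: the adjusted p was 0.720 without 4711-1, 0.234 without 4711-18 and 0.774 without 4716-11. It was also lost without the cell line block (adjusted p = 0.9998), and the median-of-ratios rescaling gave an adjusted p of 0.232. The difference itself stayed between -1.19 and -1.02 in all of these fits. Transcripts with a small insertion or deletion still count as Ppia, and reads shared with its many processed pseudogenes can be divided in ways the deposited values do not show.

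**Figure D1:**
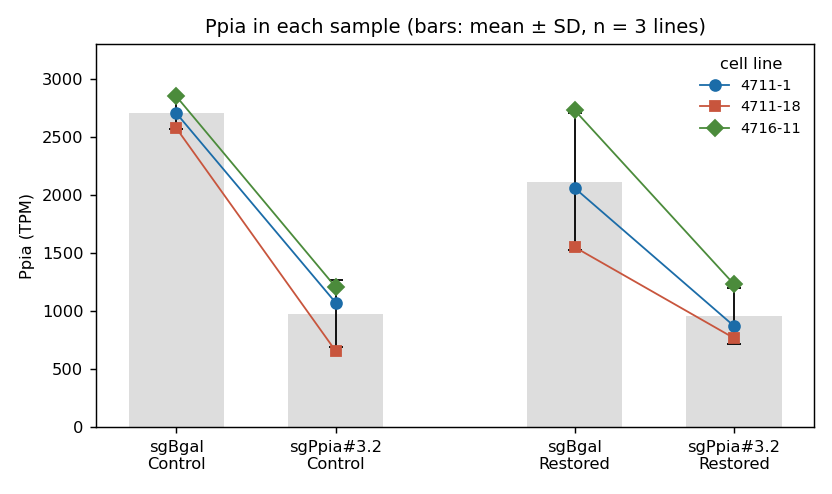
Ppia in TPM (linear axis from 0) in each sample of the 3 lines with sgBgal or sgPpia#3.2, in Control and Restored cells; grey bars are means, error bars are SD over 3 lines, and lines join the samples of 1 cell line. In Restored cells the sgPpia#3.2 samples sit between 769 and 1233 TPM, below the lowest sgBgal sample at 1551 TPM.

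In Control cells, which share no sample with the Restored comparison, Ppia was also lower with sgPpia#3.2, by 1.33, 1.97 and 1.24 on the log2 scale in 4711-1, 4711-18 and 4716-11. There Ppia fell by 1.51 on average (limma adjusted p = 0.00128), and 2 genes, 0.0166% of those tested, were called. The second was Muc1, a cell-surface mucin gene, which fell by 1.08 (adjusted p = 0.0329) in Control cells and differed by 0.00 in Restored cells. The difference of Ppia between Restored and Control did not pass its own test (interaction 0.38, unadjusted p = 0.0931 by limma). With the other Ppia guide, sgPpia#4.1, Restored cells of the 3 lines held 1678, 1191 and 1765 TPM of Ppia, each above the sgPpia#3.2 sample of the same line and below the sgBgal sample that both comparisons share.

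Ppia belongs to the cyclophilins, a family of isomerases. Of 17 listed, 16 were tested, and apart from Ppia no member passed the test. The median difference of the list was 0.00, against -0.09 over all genes tested. Ppif, the gene of cyclophilin D, was at 13.9, 27.0 and 13.9 TPM with sgBgal and at 14.8, 21 and 14.2 TPM with sgPpia#3.2, a difference of -0.08 (SE 0.141). Ppib, which encodes the endoplasmic reticulum cyclophilin B, differed by 0.14 (SE 0.108), and Ppid, which encodes the Hsp90 partner cyclophilin 40, by -0.20 (SE 0.129). For these 3 genes the groups overlapped.

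Trp53 was at 223, 206 and 218 TPM with sgBgal and at 213, 181 and 236 TPM with sgPpia#3.2, and it lay between 5.45 and 8.41 TPM in the 6 Control samples with these guides. The 3 Restored pairs differed by -0.07, -0.19 and 0.12, so the guides' levels overlapped. Rb1 and Rbl2, deleted in part in these lines, were still listed in the Restored samples, at 14.6 to 30.8 TPM and 3.89 to 6.66 TPM.

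Markers of the labelled cell type were only partly present. Of 7 neuroendocrine or SCLC markers, 4 reached 1 TPM in these 6 samples: Ncam1 (8.63 to 19.97 TPM), Syp (3.60 to 5.89 TPM), Uchl1 (1.47 to 2.53 TPM) and Insm1 (0.0260 to 2.41 TPM). Chga, which encodes a granule protein of neuroendocrine cells, did not exceed 0.156 TPM, and Calca was at 0. The summed level of the 7 markers ranged from 16.4 to 24.6 TPM with sgBgal and from 19.2 to 27.8 TPM with sgPpia#3.2. Of 4 epithelial markers, Krt8 (2396 to 5578 TPM), Krt18 (2446 to 5596 TPM) and Cdh1 (275 to 606 TPM) were abundant, while Epcam was between 0 and 1.57 TPM. Of 8 immune markers, 2 (Cd68 and Lyz2) reached 1 TPM, the defining marker Ptprc stayed at or below 0.0419 TPM, and the summed level was 29.4 to 42.9 TPM with sgBgal and 26.6 to 34.3 TPM with sgPpia#3.2. None of the 7 fibroblast and 6 endothelial markers reached 1 TPM. In bulk samples, fewer cells of a type and less RNA per cell cannot be told apart.

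Across all genes, small differences pointed downwards more often than upwards. At an unadjusted p under 0.05, 174 genes were higher (1.44%) and 938 were lower (7.78%) with sgPpia#3.2. In 3 of 3 lines, 1269 genes were higher (10.5%) and 4248 were lower (35.2%). This imbalance moved with the scaling. After median-of-ratios rescaling, which shifted the median of all genes by 0.0999 on the log2 scale, 492 genes were higher and 319 lower at an unadjusted p under 0.05, and the shares that moved the same way in 3 of 3 lines were 21.3% higher and 19.0% lower. Counts of higher and lower genes below are therefore read against the shares under the same setting.

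The differences also moved with transcript length. Genes were divided into 5 groups of like size by their longest annotated transcript. In the group of at most 1830 nt the median difference was 0.06, and in the group from 5135 nt upwards it was -0.20. The share of genes lower in 3 of 3 lines was 11.2% in the shortest group and 60.2% in the longest. Over 11858 genes, not independent of each other, Spearman's rho between difference and length was -0.31 in 4711-1, -0.32 in 4711-18 and -0.27 in 4716-11. In Control cells it was -0.28, -0.11 and -0.31. A correction for length in each sample, chosen after seeing the data and fitted with the cell line block, left 290 genes higher and 281 lower at an unadjusted p under 0.05, and in 3 of 3 lines 17.8% of genes were then higher and 17.3% lower.

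**Figure D2:**
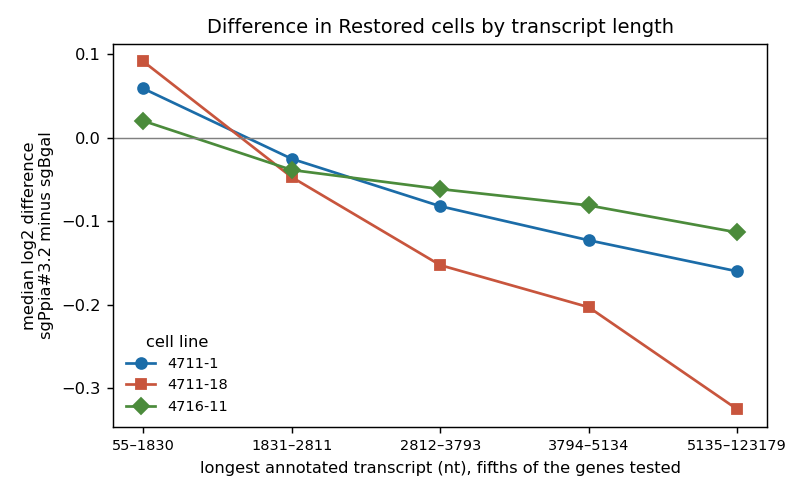
Median log2 difference (sgPpia#3.2 minus sgBgal, Restored cells) of the genes in each of 5 groups by transcript length, in nt, drawn separately for the 3 cell lines. Each line falls from a median above 0 in the shortest group to its lowest median, -0.16 in 4711-1, -0.33 in 4711-18 and -0.11 in 4716-11, in the longest group.

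The lines differed in how far they moved. The SD of the differences over genes was 0.28 in 4711-1, 0.46 in 4711-18 and 0.21 in 4716-11, and 471 genes differed by at least 1 on the log2 scale in 4711-18, against 108 and 65 in the other lines. Across genes, Pearson's r between the differences of pairs of lines was 0.20, 0.25 and 0.09. These are descriptions over genes of the same libraries and carry no p. Differences of at least 1 in the same direction in 3 of 3 lines were found for 4 genes: Ppia, Snord93, Mir3097 and Scarna10. The last 3 are short non-coding RNA genes. Each of them reached 1 TPM with 1 guide only, Snord93 with sgBgal and the others with sgPpia#3.2. They passed the filter only through the group where they were high, so the filter itself favoured a difference. Snord93 was at 9.30, 3.38 and 6.32 TPM with sgBgal and at 0.705, 0.889 and 0.893 TPM with sgPpia#3.2, while Mir3097 and Scarna10 were listed at 0 with sgBgal and did not exceed 3.29 TPM with sgPpia#3.2.

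Relative depth, estimated from the smallest steps between low values, was higher with sgPpia#3.2 in 2 lines and lower in the other. Against the shallowest of the 18 samples, set to 1, it was 1.00, 1.03 and 1.47 for sgBgal and 1.65, 1.31 and 1.30 for sgPpia#3.2 in 4711-1, 4711-18 and 4716-11. The part of depth in the results was not tested, and absolute depth is unknown, so no counting interval was computed.

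No member of 4 lists of p53 target genes passed the test, and their medians lay below 0. Among genes for cell-cycle arrest, 0 of 12 were higher and 8 were lower in 3 of 3 lines, with a median difference of -0.24, against 35.2% of all genes lower. Among genes for cell death, 1 of 15 was higher and 7 were lower (median -0.18). Among those for feedback, 0 of 6 were higher and 3 were lower (median -0.17), and among those for metabolism and repair 2 of 20 were higher and 6 lower (median -0.03). After rescaling, 0 arrest genes were higher and 3 lower, and 2 cell death genes were higher and 4 lower, against 21.3% and 19.0% of all genes. After length correction the arrest genes lower in 3 of 3 lines were 4, and the cell death genes were 2, against 17.3% of all genes. The medians after rescaling were -0.14, -0.07, -0.06 and 0.07 for arrest, cell death, feedback and metabolism and repair, so the last list changed its sign. After length correction they were -0.17, -0.04, -0.07 and 0.02. Without 4711-18 the medians of the arrest and cell death lists were -0.13 and -0.05.

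The arrest gene Cdkn1a, which encodes the CDK inhibitor p21, was at 2125, 3806 and 2158 TPM with sgBgal and at 1892, 2780.0 and 2124 TPM with sgPpia#3.2. The groups overlapped, and the difference of -0.21 (SE 0.253) was within the spread between lines. Zmat3, which encodes an RNA-binding protein of the p53 response, was at 53.4, 93.1 and 48.3 TPM with sgBgal and at 42.4, 72.9 and 41.1 TPM with sgPpia#3.2. Its difference was alike in the 3 lines (-0.33, -0.35 and -0.23, mean -0.30, SE 0.103) with an unadjusted p of 0.0117 and an adjusted p of 0.538 by limma, short of the threshold.

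Eda2r, which encodes a receptor of the tumor necrosis factor receptor family, was at 29.4, 14.3 and 10.9 TPM with sgBgal and at 19.2, 10.03 and 6.42 TPM with sgPpia#3.2, lower in each line by 0.59, 0.48 and 0.68. Apaf1, the scaffold of the apoptosome, was at 40.4, 49.1 and 22.6 TPM with sgBgal and at 30.8, 32.1 and 21.6 TPM with sgPpia#3.2. Tigar, which encodes a fructose bisphosphatase that lowers glycolytic flux, differed by -0.25 (SE 0.0946). For each of these genes the limma adjusted p was 0.538. Mdm2, the ubiquitin ligase that limits p53, differed by -0.01 in 4711-1, -0.50 in 4711-18 and 0.03 in 4716-11.

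Modules 1 to 6 are gene clusters that the study defined in other RNA-sequencing samples of Type D and Type V lines. The Type D samples among them came from the same 3 lines as here, so their direction here is not independent evidence. Of Module 5, 99 of 102 genes were tested, and 3 were higher and 40 lower in 3 of 3 lines. At an unadjusted p under 0.05, 0 of the 99 were higher and 5 lower, against 1.44% and 7.78% of all genes. Its median difference was -0.17, and it was -0.08 in 4711-1, -0.32 in 4711-18 and -0.04 in 4716-11. The median was -0.07 after rescaling, -0.07 after length correction and -0.08 without 4711-18, and after rescaling 11 genes were higher and 20 lower in 3 of 3 lines. Of Module 1, 7 of 229 genes were higher and 92 lower in 3 of 3 lines, with a median of -0.15. That share of lower genes, 40.2%, and that of Module 5, 40.4%, stood beside 35.2% of all genes tested. After rescaling 23 genes of Module 1 were higher and 51 lower (median -0.04). Of all genes, 21.3% were higher and 19.0% lower in 3 of 3 lines after rescaling, for comparison with both modules.

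Of the remaining modules, Module 6 had 27 of 71 genes lower in 3 of 3 lines (median -0.16), Module 3 had 87 of 212 (median -0.14), Module 2 had 17 of 53 (median -0.08) and Module 4 had 11 of 70 (median -0.02). The share was 15.7% in Module 4 and between 32.1% and 41.0% in the other 3, against 35.2% of all genes tested. Rescaling turned the medians of Modules 2 and 4 to 0.02 and 0.07, and without 4711-18 the medians of Modules 4 and 6 were -0.16 and -0.09. In Module 5 the smallest unadjusted p belonged to Mgat5, Plcxd2, Fam83h and Apaf1, and Mgat5, which encodes a Golgi glycosyltransferase, was at 24.6, 22.6 and 7.77 TPM with sgBgal and at 14.4, 11.4 and 6.24 TPM with sgPpia#3.2.

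Ribosomal protein genes tended to be higher with sgPpia#3.2. They encode the protein part of both ribosomal subunits. Of 79 tested, 60 were higher and 0 lower in 3 of 3 lines (75.9% higher, against 10.5% of all genes), and 21 were higher and 0 lower at an unadjusted p under 0.05. No member passed the adjusted p. The median difference was 0.20, and it was 0.12 in 4711-1, 0.32 in 4711-18 and 0.14 in 4716-11. It was 0.31 after rescaling and 0.16 after length correction, in which 54 of 78 were higher and 1 lower in 3 of 3 lines, against 17.8% higher of all genes. The transcripts are short, with a median length of 1076.5 nt against 3274 nt over all genes. In Control cells the medians of the same list were 0.16, 0.24 and 0.17.

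Rps15, a protein of the small ribosomal subunit, was at 1789, 1449.8 and 1967 TPM with sgBgal and at 2187, 2191 and 2299.7 TPM with sgPpia#3.2. The groups did not overlap, and the difference of 0.37 (SE 0.104) had an unadjusted p of 0.00326 and an adjusted p of 0.538 by limma. Rpl36a, of the large subunit, was at 884, 715 and 999.6 TPM with sgBgal and at 1105, 1040.4 and 1156 TPM with sgPpia#3.2. Rps10 and Rpl39 differed by 0.38 (SE 0.117) and 0.34 (SE 0.112). Many ribosomal protein genes have processed copies elsewhere in the genome, with which reads can be shared.

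Nuclear genes of the respiratory chain and ATP synthase, taken by symbol and so including assembly factors, also tended to be higher. Of 103 tested, 53 were higher and 5 lower in 3 of 3 lines (51.5% higher, against 10.5% of all genes), and 8 were higher and 0 lower at an unadjusted p under 0.05, against 1.44% of all genes higher. After rescaling 80 were higher and 2 lower, and after length correction 42 of 99 were higher and 4 lower. The median was 0.15, and by line it was 0.08, 0.35 and 0.04 in 4711-1, 4711-18 and 4716-11. The median was 0.06 without 4711-18, and 0.26 and 0.12 after rescaling and length correction. Their median length was 1224 nt. In Control cells the medians were 0.15, -0.22 and 0.17, so 4711-18 went the other way there. Uqcrh, a subunit of complex III, was at 309.5, 247 and 474 TPM with sgBgal and at 387, 477 and 502 TPM with sgPpia#3.2. Ndufv3, of complex I, differed by 0.50 (SE 0.152) and Atp5d, of ATP synthase, by 0.30 (SE 0.112), both short of the threshold. No symbol in the deposited values begins with mt-, so mitochondrially encoded genes could not be analysed by symbol.

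**Figure D3:**
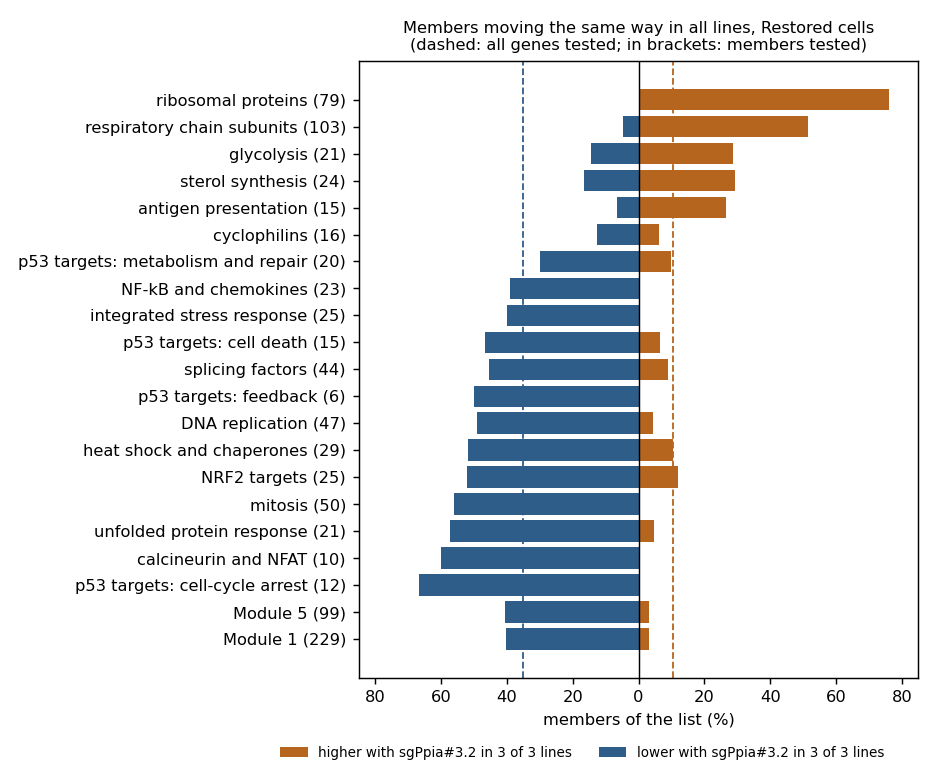
Share of the tested members of 21 gene lists, in percent, that were higher (right) or lower (left) with sgPpia#3.2 in 3 of 3 lines of Restored cells; dashed lines mark the shares over all genes tested, 10.5% and 35.2%. Ribosomal protein genes reach 75.9% on the higher side with 0 on the lower side, and the arrest genes of p53 reach 66.7% on the lower side, 8 of 12, which became 3 of 12 after rescaling and 4 of 12 after length correction.

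Targets of NRF2, the factor that drives antioxidant and glutathione genes, tended to be lower with sgPpia#3.2. Of 25 tested, 3 were higher and 13 lower in 3 of 3 lines (52.0% lower, against 35.2% of all genes), and 0 were higher and 6 lower at an unadjusted p under 0.05, against 7.78% of all genes lower. No member passed the adjusted p. The median was -0.24, and it was -0.23, -0.42 and -0.08 in 4711-1, 4711-18 and 4716-11. It was -0.13 after rescaling, with 5 higher and 11 lower in 3 of 3 lines, -0.22 after length correction, with 3 higher and 12 lower against 17.8% and 17.3% of all genes, and -0.16 without 4711-18. In Control cells the medians were -0.24, -0.56 and -0.11.

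Gsta1, a glutathione S-transferase gene, was at 14, 67.4 and 37.7 TPM with sgBgal and at 4.00, 8.98 and 26.5 TPM with sgPpia#3.2, with differences of -1.58, -2.78 and -0.49. The groups overlapped because the lines differed in level, and the mean difference of -1.62 (SE 0.487) had an unadjusted p of 0.00528 and an adjusted p of 0.538 by limma. Gsta1 has a near-identical neighbour, Gsta2, with which reads can be divided.

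Srxn1, the sulfiredoxin that repairs oxidized peroxiredoxins, was at 61.7, 246 and 114 TPM with sgBgal and at 52.7, 75.7 and 104 TPM with sgPpia#3.2. Most of its mean difference of -0.68 (SE 0.265) came from 4711-18, where it was -1.69. Gsta4 was lower more evenly, from 338, 747 and 491 TPM to 218, 529 and 390.1 TPM. Hmox1, which encodes the heme-degrading enzyme heme oxygenase 1, was at 1871, 3241 and 691 TPM with sgBgal and at 1314, 891 and 791 TPM with sgPpia#3.2, so that its direction in 4716-11 was opposite to that in the other lines.

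NRF2 binds the antioxidant response element, whose core was searched as TGACNNNGC on both strands, which overlaps the AP-1 motif when the variable bases are TCA, within windows of 250 bases before to 50 after each gene's annotated start. It was found in 7 of 21 NRF2 targets with a window (33.3%) and in 1431 of 9501 tested genes (15.1%). Windows from RefSeq (GRCm38.p6) are shown for Gsta3 and Srxn1, which were lower in 3 of 3 lines, and for Me1 and Prdx1, which were higher in 3 of 3 lines, so that members that went in opposite directions can be compared. These 4 were chosen after their values were seen. Capitals mark the match, and each is written 5′ to 3′ along its gene. Matches begin at position -121 of Gsta3, 28 of Srxn1, -6 of Me1 and -133 of Prdx1 from the annotated start, and the match is on the opposite strand in Srxn1 and Prdx1.
Gsta3, chr1:21240454-21240482, plus strand: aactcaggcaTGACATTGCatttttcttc
Srxn1, chr2:152105542-152105570, plus strand: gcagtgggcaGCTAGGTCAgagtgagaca
Me1, chr9:86695902-86695930, minus strand: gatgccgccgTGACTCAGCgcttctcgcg
Prdx1, chr4:116685456-116685484, plus strand: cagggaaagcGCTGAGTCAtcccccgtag

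Among the members shown, the match was held by Gsta3 and Srxn1, which were lower, and by Prdx1, which was higher. It was also found in Nfe2l2, Gclm and G6pdx, whose directions are not given here, while Gsta1 held none in its window. Whether the match bears on the differences was not tested. Gsta3 was low, at 0.895, 5.98 and 2.02 TPM with sgBgal and at 0.368, 1.73 and 1.42 TPM with sgPpia#3.2. Me1, which encodes the malic enzyme that supplies NADPH, differed by 0.00, 0.20 and 0.04, and Prdx1, which encodes a peroxiredoxin, by 0.14, 0.27 and 0.04.

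Genes of the integrated stress response, the amino acid starvation program run by ATF4, differed between the lines. None of the 25 tested was higher in 3 of 3 lines, against 10.5% of all genes, and 10 were lower (40.0%, against 35.2% of all genes). At an unadjusted p under 0.05, 0 were higher and 0 lower, against 1.44% and 7.78% of all genes. The median was -0.41, from -0.31 in 4711-1, -1.06 in 4711-18 and 0.03 in 4716-11. Without 4711-18 the median was -0.13 and without 4716-11 it was -0.68. After rescaling 0 were higher and 6 lower in 3 of 3 lines, against 21.3% and 19.0% of all genes. In Control cells of 4711-18 the same genes went the other way, with a median of 1.28, while 4711-1 was at -0.53 and 4716-11 at 0.05. The interaction of Slc7a11 was -1.46 (unadjusted p = 0.105 by limma).

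Slc7a11, which encodes the cystine importer and belongs to the NRF2 list too, was at 16.9, 65.0 and 6.33 TPM with sgBgal and at 8.72, 13.4 and 5.24 TPM with sgPpia#3.2, a mean difference of -1.10 (SE 0.596). Slc3a2, the heavy chain that carries it to the membrane, was at 429, 509 and 376 TPM with sgBgal and at 347, 242 and 325 TPM with sgPpia#3.2. Here the groups did not overlap, yet the difference of -0.53 (SE 0.296) had an unadjusted p of 0.0965 by limma. Slc7a1, a cationic amino acid transporter gene, and Shmt2, of mitochondrial serine metabolism, differed by -0.60 (SE 0.324) and -0.42 (SE 0.258).

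Chaperones help proteins fold, as cyclophilins do. Of 29 genes of the heat shock response and cytosolic or mitochondrial folding, 3 were higher and 15 lower in 3 of 3 lines (51.7% lower, against 35.2% of all genes), and 0 were higher and 5 lower at an unadjusted p under 0.05. After rescaling 6 were higher and 7 lower, against 21.3% and 19.0% of all genes. The median of -0.14 was -0.03 after rescaling, -0.08 after length correction and -0.06 without 4711-18, and by line it was -0.06, -0.27 and -0.05. Hsph1, an Hsp110 exchange factor, was at 70.8, 90.6 and 72.1 TPM with sgBgal and at 47.1, 54.4 and 55.9 TPM with sgPpia#3.2. Its groups did not overlap, and the difference of -0.56 (SE 0.145) had an unadjusted p of 0.00198 and an adjusted p of 0.538 by limma. The mitochondrial chaperone genes Hspa9 and Hspd1 differed by -0.41 (SE 0.149) and -0.37 (SE 0.157), and their groups did not overlap either.

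Of 21 genes of the unfolded protein response of the endoplasmic reticulum, 1 was higher and 12 were lower in 3 of 3 lines. The share lower was 57.1%, against 35.2% of all genes. The median was -0.18, -0.07 after rescaling and -0.03 after length correction. After rescaling 2 were higher and 8 lower, against 21.3% higher and 19.0% lower of all genes. After length correction 1 was higher and 6 were lower, against 17.8% higher and 17.3% lower of all genes. Dnajb9, which encodes the co-chaperone ERdj4, was at 179.9, 178 and 112 TPM with sgBgal and at 124, 64.3 and 92.6 TPM with sgPpia#3.2. It was lower by 0.53, 1.45 and 0.27, a mean of -0.75 (SE 0.200) with an unadjusted p of 0.00227 and an adjusted p of 0.538 by limma. Edem1, a factor of glycoprotein degradation, differed by -0.27 (SE 0.103), alike in the 3 lines.

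**Figure D4:**
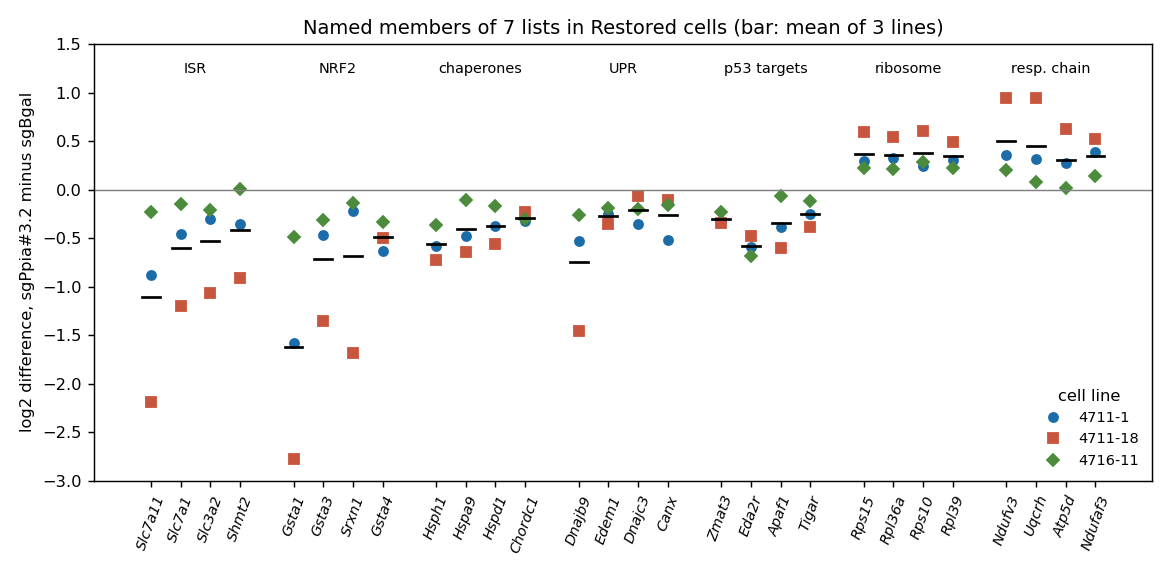
Log2 difference (sgPpia#3.2 minus sgBgal, Restored cells) in each of the 3 lines for 28 named genes of the lists on the integrated stress response (ISR), NRF2, chaperones, the unfolded protein response (UPR), p53 targets, the ribosome and the respiratory chain; short bars are means. Genes were named for their small unadjusted p, and 4711-18 lies furthest from 0 for Slc7a11 at -2.19, Gsta1 at -2.78 and Srxn1 at -1.69.

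Of 50 mitosis genes, which run chromosome segregation and cytokinesis, 0 were higher and 28 lower in 3 of 3 lines (56.0% lower). Of 47 DNA replication genes 2 were higher and 23 lower (48.9% lower), against 35.2% of all genes tested. After rescaling, 2 mitosis genes were higher and 20 lower, and 10 replication genes were higher and 10 lower, against 21.3% higher and 19.0% lower of all genes. The medians were -0.22 and -0.14, -0.13 and -0.03 after rescaling, and -0.11 and -0.05 after length correction. The replication median was -0.06 without 4711-18, and by line it was -0.06, -0.34 and -0.05. None of the mitosis genes and 1 of the replication genes, Cdk2, had an unadjusted p under 0.05, against 7.78% of all genes lower at that p. Cdk2, a kinase that drives S phase, was at 54.4, 54.6 and 46.9 TPM with sgBgal and at 47.3, 39.6 and 40.6 TPM with sgPpia#3.2. Anln, which encodes the cytokinesis protein anillin, differed by -0.45, -0.86 and -0.38. In Control cells the mitosis median lay at -1.33 for 4711-18, at -0.09 for 4711-1 and at -0.14 for 4716-11.

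NF-kB drives genes of inflammation and survival. Of 23 NF-kB and chemokine genes, 0 were higher and 9 lower in 3 of 3 lines (39.1% lower, against 35.2% of all genes). The median of -0.20 was -0.10 after rescaling, when 0 were higher and 5 lower, and -0.14 without 4716-11. Nfkb1, which encodes the p105 precursor of an NF-kB subunit, was at 41.5, 70.7 and 38.6 TPM with sgBgal and at 32.6, 47.1 and 30.02 TPM with sgPpia#3.2 (difference -0.42, SE 0.142). Of 21 necroptosis, pyroptosis and pore genes, 1 was higher and 5 were lower in 3 of 3 lines (23.8% lower, against 35.2% of all genes). Their median of -0.04 became 0.07 after rescaling. Ripk1, the kinase at the head of necroptosis signalling, differed by -0.31 (SE 0.128). Ripk3, which relays that signal, was between 0.0707 and 2.32 TPM in the 6 samples. Mlkl, the gene of the necroptosis executor, was at 116, 170.1 and 139.7 TPM with sgBgal and at 106, 96.5 and 139 TPM with sgPpia#3.2. No member of either list passed the test.

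Calcineurin is the phosphatase that CypA inhibits when cyclosporin A is bound. Of 10 tested genes of calcineurin and its NFAT substrates, 0 were higher and 6 lower in 3 of 3 lines (median -0.18, -0.08 after rescaling and -0.05 after length correction), against 35.2% of all genes lower. After rescaling 0 were higher and 3 lower, against 19.0% of all genes lower. After length correction 0 were higher and 2 lower, against 17.3% of all genes lower. The median was -0.12 without 4711-18 and -0.28 without 4711-1. Nfatc3, an NFAT factor gene, differed by -0.35 (SE 0.144), and Rcan1, which encodes a calcineurin regulator that NFAT induces, was at 23.3, 43.5 and 25.1 TPM with sgBgal and at 20.9, 26.6 and 24.3 TPM with sgPpia#3.2. The groups of Rcan1 overlapped.

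Of 21 glycolysis genes, 6 were higher and 3 lower in 3 of 3 lines (median 0.12, and -0.01, 0.26 and 0.10 in 4711-1, 4711-18 and 4716-11). The share higher was 28.6%, against 10.5% of all genes. After rescaling 11 were higher and 0 lower (median 0.23), and after length correction 9 were higher and 0 lower (median 0.15). The median was 0.06 without 4711-18. Ldha, of lactate dehydrogenase, was at 1856, 1647 and 1939 TPM with sgBgal and at 1899.9, 2261 and 2257 TPM with sgPpia#3.2, and its groups overlapped. Of 24 sterol synthesis genes, 7 were higher and 4 lower (29.2% higher, median 0.07, and -0.03 without 4711-18). After rescaling 9 were higher and 1 was lower (median 0.17), and after length correction 9 were higher and 0 lower (median 0.12). Tm7sf2, a sterol reductase gene, was at 38.9, 13.2 and 28.9 TPM with sgBgal and at 54.4, 24.2 and 36.2 TPM with sgPpia#3.2, a difference of 0.54 (SE 0.171, unadjusted p = 0.00732 by limma).

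The protein-coding genes with the largest difference in their least affected line were looked at next, and none of these apart from Ppia had passed the test. Bnip3, a mitophagy receptor gene that hypoxia induces, was at 46.7, 98.5 and 50.5 TPM with sgBgal and at 78.6, 209.7 and 116 TPM with sgPpia#3.2. It was higher by 0.74, 1.08 and 1.18, yet the pooled spread of the fit gave a limma adjusted p of 0.557. Aldoc, an aldolase gene that is also in the glycolysis list, was higher by 0.53, 1.04 and 0.56. G0s2, an inhibitor of triglyceride lipolysis, was at 63.8, 1.89 and 58.0 TPM with sgBgal and at 156, 4.28 and 85.1 TPM with sgPpia#3.2. Copz2, of a vesicle coat, and Ism1, a secreted protein gene, were higher by means of 1.01 (SE 0.409) and 0.72 (SE 0.253). With sgPpia#4.1, against the same sgBgal samples, Bnip3 differed by 1.42, -0.49 and 0.91 in 4711-1, 4711-18 and 4716-11. Aldoc, G0s2, Copz2 and Ism1 did not move the same way in all lines with that guide either.

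On the lower side, Slc26a2, a sulfate transporter gene, was at 50.1, 57.6 and 27.8 TPM with sgBgal and at 21.6, 22.1 and 18.2 TPM with sgPpia#3.2. Its groups did not overlap, and the difference of -1.04 (SE 0.292) had an adjusted p of 0.538 by limma. It was lower in Control cells as well, by 1.28, 1.45 and 0.82. Depp1, a target of FOXO factors, was at 4.71, 11.4 and 4.75 TPM with sgBgal and at 1.67, 2.30 and 2.84 TPM with sgPpia#3.2. Sel1l3 and Arid5b, a chromatin factor gene, differed by -0.73 (SE 0.297) and -0.63 (SE 0.230). With sgPpia#4.1, Slc26a2, Depp1 and Sel1l3 were lower in each line, and Arid5b was lower in 4711-1 only. The other genes named by this rule were Cfap77, Ctla2a and Ctla2b on the higher side, of which the last pair are near-identical copies, and short RNA genes on both sides. Among these, Rnu12, an RNA of the minor spliceosome, was at 3.43, 2.33 and 1.87 TPM with sgBgal and at 0.833, 0 and 0.527 TPM with sgPpia#3.2. Rnu12 passed the filter only through its sgBgal samples. Such short features rest on few reads.

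The differences in Restored cells were set beside those in Control cells of the same lines. No gene passed the adjusted p for the interaction, by limma, and 150 genes (1.24%) had an unadjusted p under 0.05. Across genes, Pearson's r between the Restored and Control differences was 0.37, 0.17 and 0.33 within 4711-1, 4711-18 and 4716-11, and 0.10 to 0.33 between different lines. These too are descriptions, over genes of the same libraries. Slc2a4rg-ps, listed as a pseudogene, was higher in the 3 Restored pairs by 0.52, 0.63 and 0.51 and differed by -0.20, 0.13 and -0.06 in Control cells (interaction 0.60, unadjusted p = 0.00144). Pklr, a pyruvate kinase gene, and 1700084E18Rik had interactions of 1.11 and -1.47. Btg3, an antiproliferative gene, and the small RNA gene Snora34 had interactions of -0.73 and -0.66. Their adjusted p was 0.9995.

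**Figure D5:**
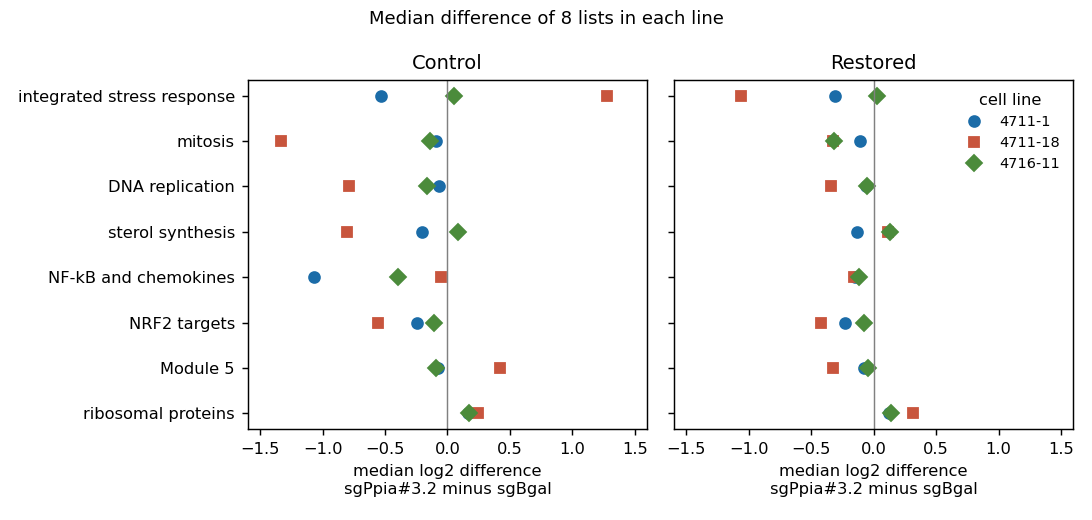
Median log2 difference (sgPpia#3.2 minus sgBgal) of 8 gene lists in each of the 3 lines, in Control cells (left) and Restored cells (right). Integrated stress response genes of 4711-18 lie at 1.28 in Control and at -1.06 in Restored cells, while ribosomal protein genes lie between 0.12 and 0.32 in both states.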

How the data were processed

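RNA was isolated with the RNeasy kit, and Azenta prepared NEBNext Ultra II libraries. The authors deposited 1 table of TPM for 18 samples, with no counts. The submitters' processing notes name bcl2fastq 2.17, HISAT2 and the builds mm10 and GRCm39, and the study's methods also name Kallisto. Which of these made this table is not given in the sources used here. Each column of deposited TPM sums to the same total, so depth is known only relative to the other samples.

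Differences were computed on log2(TPM + 1) for 12061 genes, those that reached 1 TPM in 3 or more of the 6 samples. limma 3.58.1 in R 4.3.3 was fitted to all 18 samples with a mean for each of 6 conditions and the cell line as a block (10 residual degrees of freedom), with Benjamini-Hochberg adjustment. The pairing comes from the labels, which give the line of each sample. Deviations of samples of 1 line from their condition means correlated at 0.556 or more in all 45 pairs of such samples. All p-values rest on 3 lines. The fit was tested on simulated data.

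Genes named were those called, the 12 per direction with the largest difference in their least affected line (Gm numbers, Rik clones and pseudogenes left out), the cyclophilins, up to 4 per list by smallest unadjusted p, Trp53 and Cdkn1a, and 3 per direction by interaction p. Other genes named were chosen after their values were seen. The comparison and the lists were chosen with earlier results of these data known. Alternatives were no block, the 6 samples alone, rescaling by median of ratios, a pseudocount of 0.1, other filters, limma's trend and robust options, and leaving out each line. A correction for transcript length (a spline with 5 degrees of freedom per sample, lengths from GENCODE M21) and the alternatives for Control cells were added after seeing the data. Sequences come from GENCODE and RefSeq tables of GRCm38, and no coordinates were taken from the deposited table. The level of 1 marker gene is not reported here.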

Additional observations from a re-analysis of the deposited data

Results flagged for a closer look

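Eda2r, Ifit3 and Srsf3 differed in opposite directions in Restored and Control cells, in 3 of 3 lines each. For Eda2r the interaction was -0.69 (unadjusted p = 0.0328 by limma), with differences of -0.59, -0.48 and -0.68 in Restored cells and 0.05, 0.27 and 0.01 in Control cells of 4711-1, 4711-18 and 4716-11. For Ifit3, an interferon-induced gene, it was 0.83 (unadjusted p = 0.0598), with 0.41, 1.25 and 0.16 in Restored and -0.14, -0.39 and -0.15 in Control cells. For Srsf3, a splicing factor gene, it was -0.31 (unadjusted p = 0.0862), with -0.16, -0.51 and -0.07 in Restored and 0.15, 0.01 and 0.03 in Control cells. The adjusted p was 0.9995 for these 3 genes. Among all 12061 genes tested, 76 were lower in Restored and higher in Control cells in 3 of 3 lines each, and 66 were the reverse. No explanation was tested.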

How the results depend on the processing

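The count of 1 changed gene became 0 without the replicate block, with the 6 Restored samples alone, with a pseudocount of 0.1, after rescaling, with no filter on low values, after length correction and without any single line (0 to 0). It stayed at 1 with both other filters and with the trend and robust options. At an unadjusted p under 0.05, with no minimum difference, the count was 1112, against 153 without the block, 1441 with the 6 samples alone, 1063 with the smaller pseudocount, 811 after rescaling, 1638 with no filter, 571 after length correction and 429 to 653 without 1 line. Ppia lost its call while the difference stayed at -1.13 without the block (adjusted p = 0.9998 by limma), -1.13 with the 6 samples alone (0.404), -1.13 with the smaller pseudocount (0.0641), -1.02 after rescaling (0.232), -1.13 with no filter (0.104), -1.06 after length correction (0.153) and -1.19 to -1.08 without 1 line. The interaction gave 0 adjusted calls and 150 at an unadjusted p under 0.05. The count of 2 in Control cells became 0 without the block, 1 after rescaling, 1 with no filter, 1 after length correction and 0 to 0 without 1 line. The cause of these losses was not tested.

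Of 35 list medians, 7 changed sign after rescaling, 1 with the smaller pseudocount, and 5, 1 and 6 without 4711-1, 4711-18 and 4716-11. After length correction 6 of 34 did. Of 174 named genes other than Ppia, 5 changed sign after rescaling, 9 of 170 after length correction, and 5, 10 and 7 without these lines. No list or other named gene was called under any of these settings. Depth is known only relative to the other samples, and no counting limit was set for low genes.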

Other observations

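In 4711-18, Nkx2-1, a lung lineage factor gene, was at 49.3 TPM with sgBgal and 155 TPM with sgPpia#3.2 in Restored cells, while it was at 1.97 and 1.83 TPM in 4711-1 and at 33.2 and 32.4 TPM in 4716-11. Cldn2, a tight junction gene, was at 19.0 and 95.8 TPM in 4711-18, at 147 and 100.1 TPM in 4711-1 and at 70.5 and 76.5 TPM in 4716-11. Neither passed the test.

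The counts that follow stand beside 10.5% of all genes higher and 35.2% lower in 3 of 3 lines. Of 22 epithelial genes, 5 were higher and 1 was lower in 3 of 3 lines. Their median was 0.05, 0.32 and -0.11 in 4711-1, 4711-18 and 4716-11. Of 24 mesenchymal and matrix genes, 3 were higher and 4 lower (median -0.07, -0.01 without 4711-1 and -0.03 without 4711-18). The 11 canonical histone genes tested moved apart by line, with medians of 0.41, -0.71 and 0.65, and 0 went the same way in 3 of 3 lines. Among 44 splicing factor genes 4 were higher and 20 lower (median -0.13, -0.02 after rescaling and -0.03 without 4711-18). Among 44 autophagy and lysosome genes 3 were higher and 16 lower (median -0.12, -0.01 after rescaling and -0.07 without 4711-18). These shares lower, 45.5% and 36.4%, stood beside 35.2% of all genes. Of 14 ferroptosis genes, 2 were higher and 4 lower (median -0.25, -0.14 after rescaling and -0.16 without 4711-18). Of 21 interferon response genes, 3 were higher and 7 lower (median -0.10), and of 15 antigen presentation genes 4 were higher and 1 was lower (median 0.01), against 10.5% of all genes higher. The antigen presentation genes were 6 higher and 0 lower after rescaling (median 0.12), and their median was 0.08 after length correction. Of 17 fatty acid synthesis genes, 3 were higher and 6 lower (median 0.00), and of 17 neuroendocrine genes 2 were higher and 3 lower (median -0.04). After rescaling the medians were 0.14 for the epithelial, 0.00 for the mesenchymal, -0.01 for the interferon response, 0.11 for the fatty acid synthesis and 0.03 for the neuroendocrine genes. No member of these lists passed the test.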
